A study of Mus musculus with 10 samples.

Results

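The genes described here are matrix metalloproteinases and their tissue inhibitors: Mmp2, Mmp3, Mmp7, Mmp9, Mmp14, Timp1, Timp2, Timp3 and Timp4. They were taken by symbol from the platform annotation, which named 1 probe set for each of 9 of the 10 genes listed, out of 19938 genes with a probe set of a single symbol; Mmp15 was not analysed here. Expression was measured on Affymetrix whole-transcript arrays in prostates of male TRAMP mice, with 1 array per mouse. TRAMP mice carry the SV40 T antigen under the probasin promoter, which is active in prostate epithelium, so all 10 mice carried this oncogene. Nicotine, as the tartrate salt, was put into the drinking water of 5 mice at 250 µg/ml, starting when they were 8 to 9 weeks old, and the 5 control mice had tap water alone. Mice are called water 1 to 5 and nicotine 1 to 5 after their labels, and the number of arrays limits the precision. In the RefSeq gene table for GRCm38.p6, Mmp2 lies on chromosome 8, Mmp9 on 2, Mmp3 and Mmp7 on 9, Mmp14 on 14, Timp1 on X, Timp2 on 11, Timp3 on 10 and Timp4 on 6.

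Matrix metalloproteinases are zinc-dependent enzymes, made as inactive precursors, that cut collagens, laminins, proteoglycans and cell surface proteins. TIMP proteins bind their active sites and block them. In prostate, stromal fibroblasts, glandular epithelium and infiltrating leukocytes are all known sources of members of both families.

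Among these mice, 2 prostates stood apart in tissue markers. In nicotine 3, all 7 measured luminal prostate markers lay below every water mouse, with Pbsn (probasin itself) at 5.08 log2 units against 10.95 to 11.54 in water mice. In nicotine 1 the mean of these markers was 11.17, against 11.84 to 12.06 in water mice. Neuroendocrine markers averaged 9.80 in nicotine 3 and 9.51 in nicotine 1, and 6.67 to 7.28 in water mice. Skeletal muscle markers averaged 10.32 in nicotine 1 and 7.54 to 7.69 in water mice. Seminal vesicle markers varied within both groups, from 7.21 to 13.15 in water mice and from 5.92 to 12.52 in nicotine mice. Differences are therefore given with all 10 mice and without nicotine 1 and 3. In whole tissue, fewer cells of a type and less RNA per cell cannot be told apart.

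Across the tested members, no gene passed the test of nicotine against water over all genes. Of the 9 genes, 8 were above the level filter described with the processing, and all 8 had lower means in nicotine mice, where 49.3% of all 14953 tested genes did. By limma, 0 of 8 had an adjusted p under 0.05, as did 0% of all tested genes; at an unadjusted p under 0.05 there was 1 lower member, Mmp2, against 5.84% of all genes, and 0 higher members, against 4.28%. The median log2 difference of the 8 was -0.58, against 0.0039 over all tested genes. Without nicotine 1 and 3 the same median was -0.14 against 0.0095, and 6 of 8 differences were below 0, where 46.5% of all genes were. Mmp2 was again the 1 member with an unadjusted p under 0.05, against 8.69% of all genes in that direction, and by limma 0% of genes passed. Mmp2 kept its size in both comparisons, and the other genes with large differences did not.

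**Figure D1:**
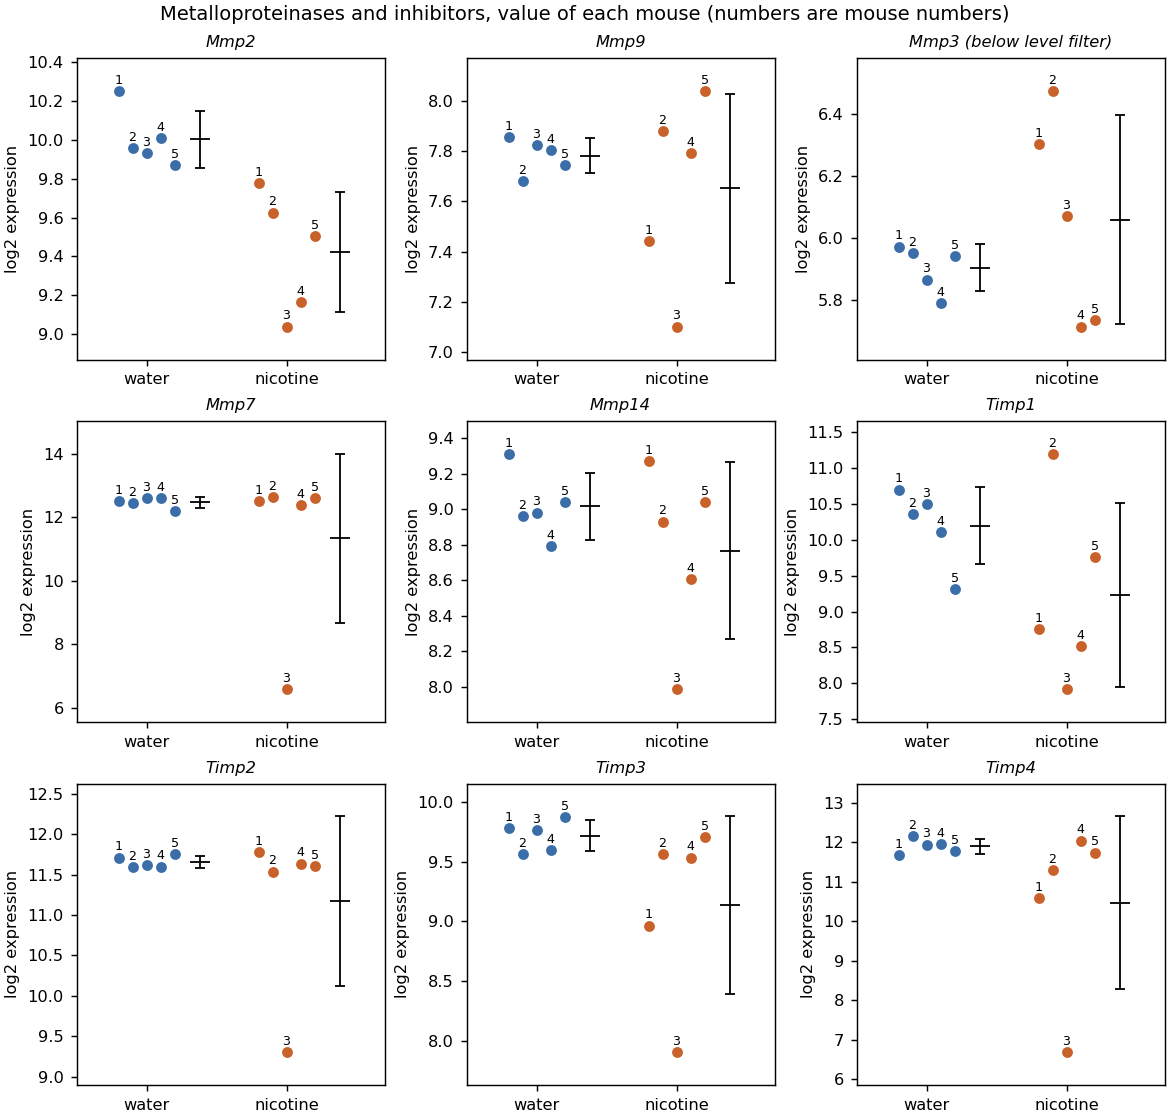
Log2 expression of 9 metalloproteinase and inhibitor genes in each mouse, with water mice in blue and nicotine mice in orange; numbers are mouse numbers, and bars are the mean and SD of each group of 5. Mmp2 does not overlap between the groups, while Mmp7 and Timp4 are set apart mainly by nicotine 3, at 6.59 and 6.69.

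Mmp2, the gelatinase that cleaves type IV collagen and is made mostly by stromal cells, had log2 values of 10.25, 9.96, 9.93, 10.01 and 9.87 in water mice 1 to 5. In nicotine mice 1 to 5 it had 9.78, 9.62, 9.04, 9.17 and 9.51. The groups did not overlap: each nicotine mouse was lower than each water mouse, and nicotine 3 and 4 were lowest. Groups that do not overlap in this direction were found in 2.88% of all tested genes, and Mmp2 was the 1 member among them; the opposite order was found in 2.02% of genes and 0 members. The means were 10.004 ± 0.147 (SD, n = 5) in water mice and 9.422 ± 0.310 (SD, n = 5) in nicotine mice, a fold of 1.50 higher in water. The difference was -0.58 ± 0.15 (SE) log2 units, with a 95% interval from -0.91 to -0.25 and an adjusted p of 0.458 by limma. The exact two-sided permutation p was 0.00794, the smallest that 5 against 5 mice can give, without adjustment for the number of genes.

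Without nicotine 1 and 3 the difference of Mmp2 was -0.57 ± 0.11 (SE), with an interval from -0.82 to -0.32 and a limma adjusted p of 0.0894. The 3 remaining nicotine mice were below all water mice, as in 6.47% of all tested genes, and the exact permutation p was 0.0179, the smallest possible there. Both follow from the lack of overlap between the full groups, so they add no support. In a limma fit that gave less weight to arrays unlike the rest of their group, Mmp2 passed as lower at -0.50 with an adjusted p of 0.0104. Nicotine 3 and 1 had weights of 0.032 and 0.113 there, so they counted little. Nicotine 2 and 4 had 1.84 and 1.40, and nicotine 5 had the highest weight of all arrays, 4.67. In that fit 7.33% of all genes passed, and 4.49% passed as lower. Over all alternatives its adjusted p ran from 0.0104 to 0.858.

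Mean levels of several marker lists, the fibroblast and macrophage lists among them, were lower in nicotine mice too. The fibroblast list mean ran from 9.10 to 9.42 in water mice and from 8.12 to 9.03 in nicotine mice (8.61 to 8.87 with nicotine 1 and 3 left out), with 9 of 10 markers lower on average. The macrophage list mean ran from 8.75 to 9.44 in water mice and from 8.30 to 8.86 in nicotine mice, with 10 of 10 markers lower. With nicotine 1 and 3 left out it ran from 8.59 to 8.86 and overlapped the water mice. The mesenchymal receptor gene Pdgfra, for example, had 8.99 to 9.42 in water mice and 7.35 to 8.92 in nicotine mice. The exception in the fibroblast list was the related receptor gene Pdgfrb, at 9.45 in nicotine 1 and 8.74 in nicotine 3, against 7.94 to 8.22 in water mice. Over all 5 nicotine mice, 8 of 8 smooth muscle markers and 7 of 7 luminal prostate markers were lower on average as well. The smooth muscle list mean was 8.02 in nicotine 3 and 10.33 in nicotine 1. With these mice left out it was 10.94 to 11.20, against 10.79 to 11.08 in water mice. The luminal list mean was then 11.84 to 12.14, against 11.84 to 12.06. The endothelial list mean ran from 7.77 to 8.03 in water mice and from 7.57 to 8.29 in nicotine mice, with 6 of 8 markers lower. With nicotine 1 and 3 left out it ran from 7.57 to 7.70, below every water mouse. The part of these cell types in the Mmp2 difference was not tested.

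Mmp9, the other gelatinase, is known from neutrophils and macrophages. In water mice its log2 values were 7.86, 7.68, 7.82, 7.80 and 7.74, and the nicotine mice had 7.44, 7.88, 7.10, 7.79 and 8.04, each in the order of the mouse numbers. Nicotine 3 and 1 were lowest and nicotine 5 highest, so the nicotine mice lay on both sides of the water mice. The difference was -0.13 ± 0.16 (SE) with a limma adjusted p of 0.640. It changed sign without nicotine 3, at 0.01, and without nicotine 1 and 3, at 0.12 (interval from -0.03 to 0.27, adjusted p of 0.440 by limma). Neutrophil markers averaged 6.10 to 6.27 in water mice and 6.09 to 6.25 in nicotine mice, but these means lie below the level filter and 4 of the 8 markers were tested, so the list could hardly show a difference.

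Mmp3, stromelysin 1, which cleaves proteoglycans and can activate other metalloproteinases, was below the level filter on all 10 arrays. The water mice had 5.97, 5.95, 5.87, 5.79 and 5.94, and the nicotine mice 6.30, 6.48, 6.07, 5.71 and 5.74. Nicotine 1, 2 and 3 lay above all water mice and nicotine 4 and 5 below them. In a fit without the filter the difference was 0.16 ± 0.15 (SE), with an adjusted p of 0.600 by limma. It was 0.07 without nicotine 1 and 3.

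Mmp7, matrilysin, is a small metalloproteinase made by glandular epithelium rather than stroma. Water mice had log2 values of 12.51, 12.45, 12.61, 12.61 and 12.19, and nicotine mice had 12.50, 12.62, 6.59, 12.38 and 12.60. Nicotine 3 differed from the lowest water mouse by -5.60 log2 units, and the other 4 nicotine mice lay within 0.15 log2 units of the water mean. On the array scale the water mean was 59.1-fold above nicotine 3, whose value lies close to the level filter of 6.55, so this fold is no exact size. By comparison, 0.14% of all tested genes lay as far or farther below their water mean in that mouse. Nicotine 1, whose neuroendocrine markers were also high, kept an Mmp7 value of 12.50. The group means were 12.47 ± 0.17 (SD, n = 5) and 11.34 ± 2.66 (SD, n = 5), and the difference of -1.13 ± 1.08 (SE) had an adjusted p of 0.551 by limma. Without nicotine 3 alone it was 0.05, and without nicotine 1 and 3 it was 0.06, with an interval from -0.16 to 0.28.

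Mmp14, the membrane-bound collagenase that activates the Mmp2 precursor together with Timp2, had 9.31, 8.96, 8.98, 8.79 and 9.04 in water mice. The nicotine mice had 9.27, 8.93, 7.99, 8.61 and 9.04. Nicotine 3 was the lowest and nicotine 4 the next, while nicotine 1, 2 and 5 lay among the water mice. The difference was -0.25 ± 0.22 (SE), with an adjusted p of 0.528 by limma. It was -0.06 without nicotine 3 and -0.16 without nicotine 1 and 3 (interval from -0.43 to 0.11).

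Among the inhibitors, Timp1 had the widest spread with nicotine 1 and 3 set aside, with an SD of 1.34 over nicotine 2, 4 and 5. It is secreted by many cell types and is induced in inflammation and wound repair. It had log2 values of 10.70, 10.35, 10.50, 10.11 and 9.31 in water mice, while the nicotine mice had 8.76, 11.20, 7.92, 8.52 and 9.76. Nicotine 2 was the highest of all 10 mice, nicotine 1, 3 and 4 lay below every water mouse, and nicotine 5 lay inside the water range. The means were 10.19 ± 0.54 (SD, n = 5) and 9.23 ± 1.28 (SD, n = 5). The difference was -0.96 ± 0.57 (SE), with an adjusted p of 0.458 by limma and an exact permutation p of 0.159. It was -0.64 without nicotine 3, -1.46 without nicotine 2, and -0.37 without nicotine 1 and 3 (interval from -1.47 to 0.74).

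Timp2, which inhibits most metalloproteinases and also docks the Mmp2 precursor to Mmp14, was among the steadiest members outside nicotine 3. The water mice had 11.71, 11.60, 11.62, 11.60 and 11.76. The nicotine mice had 11.77, 11.54, 9.31, 11.63 and 11.61. Nicotine 3 differed from the lowest water mouse by -2.29 log2 units, and the other 4 lay within 0.12 of the water mean. The difference was -0.48 ± 0.43 (SE), with an adjusted p of 0.529 by limma. It was -0.02 without nicotine 3 and -0.06 without nicotine 1 and 3 (interval from -0.19 to 0.07).

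Timp3, which binds to the matrix and also inhibits several ADAM proteases, had 9.78, 9.57, 9.76, 9.60 and 9.87 in water mice. The nicotine mice had 8.96, 9.56, 7.91, 9.53 and 9.71. Nicotine 3 and then nicotine 1 were lowest, nicotine 2 and 4 lay just under the lowest water mouse, and nicotine 5 lay inside the water range. The difference was -0.58 ± 0.31 (SE), with an adjusted p of 0.458 by limma and an exact permutation p of 0.0397 that is not adjusted for the number of genes. It was -0.27 without nicotine 3, and -0.11 without nicotine 1 and 3 (interval from -0.29 to 0.06), with an exact permutation p of 0.179.

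Timp4, an inhibitor with a narrower tissue range than the other 3, had 11.66, 12.14, 11.93, 11.95 and 11.77 in water mice. In nicotine mice it had 10.59, 11.28, 6.69, 12.04 and 11.73. Nicotine 3 was lowest, then nicotine 1 and nicotine 2, while nicotine 4 and 5 lay inside the water range. On the array scale the water mean was 2.47-fold above nicotine 1 and 36.9-fold above nicotine 3, whose value is again close to the level filter. The difference was -1.43 ± 0.89 (SE), with an adjusted p of 0.461 by limma. It was -0.48 without nicotine 3 and -0.21 without nicotine 1 and 3 (interval from -0.55 to 0.13).

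**Figure D2:**
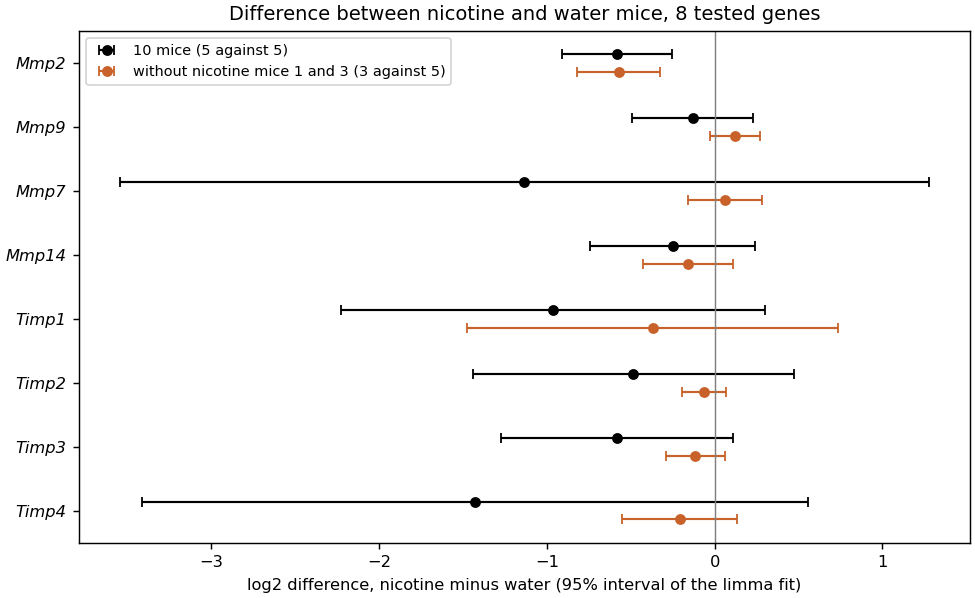
Log2 difference, nicotine minus water, of the 8 tested genes with the 95% interval of the limma fit, for all 10 mice in black and without nicotine 1 and 3 in orange. The interval of Mmp2 lies below 0 in both fits, and those of Mmp7 and Timp4 narrow from several log2 units to under 1.

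Between arrays, nicotine 3 had the lowest value of the 10 mice in 8 of the 8 tested members, against 35.3% of all tested genes. It lay over 1 log2 unit below the lowest water mouse in 5 of 8 (Mmp7, Timp1, Timp2, Timp3 and Timp4), against 12.2%, and over 2 units below in 3 of 8 (Mmp7, Timp2 and Timp4), against 4.92%. Nicotine 1 was over 1 unit below in 1 of 8, Timp4, against 2.82%. From the water mean, nicotine 3 deviated by -5.88 in Mmp7, -5.20 in Timp4, -2.35 in Timp2, -2.28 in Timp1 and -1.81 in Timp3. Mmp14, Mmp2 and Mmp9 deviated by -1.03, -0.96 and -0.68, and Mmp3 by 0.17. In the same mouse the smooth muscle markers averaged 8.02 against 10.79 to 11.08 in water mice, with 7 of 8 below every water mouse. The part of cell content in these deviations was not tested.

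The deviations of nicotine 1 did not follow the same order. It was -1.43 for Timp1, -1.31 for Timp4 and -0.75 for Timp3, while Mmp7, Timp2 and Mmp14 deviated by 0.02, 0.12 and 0.25. The SD was wider in nicotine than in water mice in 8 of 8 tested members, as in 84.5% of all tested genes. With nicotine 1 and 3 left out it was wider in 5 of 8. The share of all tested genes was not counted there. Their median SD was then 0.079 in nicotine mice and 0.097 in water mice.

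**Figure D3:**
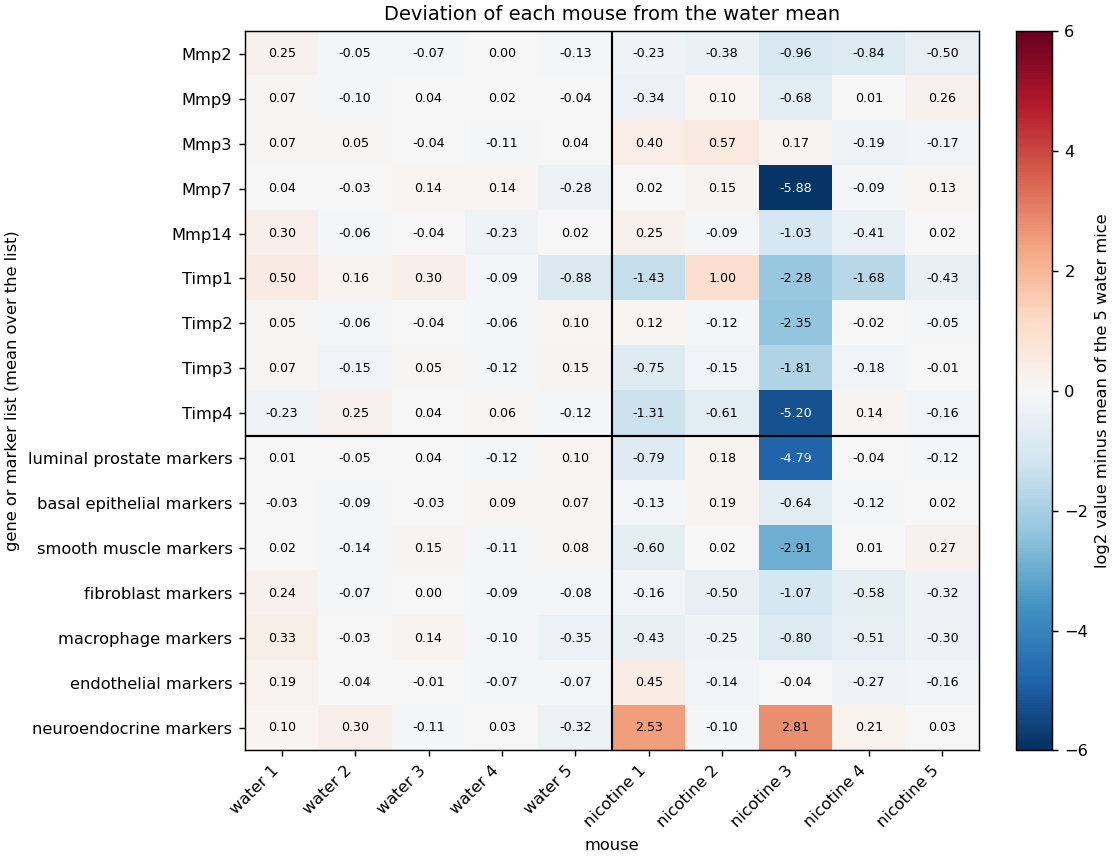
Log2 value of each mouse minus the mean of the 5 water mice, for the 9 genes (above the line) and the means of 7 marker lists (below it); red is higher and blue lower. In nicotine 3, Mmp7 at -5.88 and Timp4 at -5.20 stand beside the luminal prostate markers.

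The genes with the most similar values across mice differed between members. Likeness was the root mean square difference of gene-centred log2 values over the 10 arrays, where a smaller number means more alike, and it was computed for the 7 tested members that spanned over 1 log2 unit. Mmp7 was nearest to Krt18, a keratin of luminal epithelium and one of the luminal markers above, at 0.176, and to Agr2, a folding factor of secretory epithelia, at 0.226, over a span of 6.03. Timp4 was nearest to Cbr2, a carbonyl reductase, at 0.153 and to Scd1, the stearoyl-CoA desaturase, at 0.165. Cbr2 had 7.66 in nicotine 3, 11.46 in nicotine 1 and 12.54 to 12.93 in the other 8 mice.

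Mmp2 was nearest to C4b, a complement gene, at 0.104 and to Irf8, a transcription factor of myeloid cells, at 0.146. Mmp14 was nearest to the matrix protein gene Ecm1 (0.0965) and to Hspg2, the basement membrane proteoglycan perlecan (0.135). Timp1 was nearest to the chemokine gene Ccl6 (0.382) and the acute phase gene Serpina3n (0.387), both farther away than for any other member. Timp2 was nearest to Abhd2 (0.0603) and the T-box factor gene Tbx3 (0.0712), and Timp3 to Fkbp9 (0.0542) and the kinase gene Ikbke (0.0674). Likeness was taken over all 10 arrays, so a low value in nicotine 3 was part of how these genes were chosen.

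**Figure D4:**
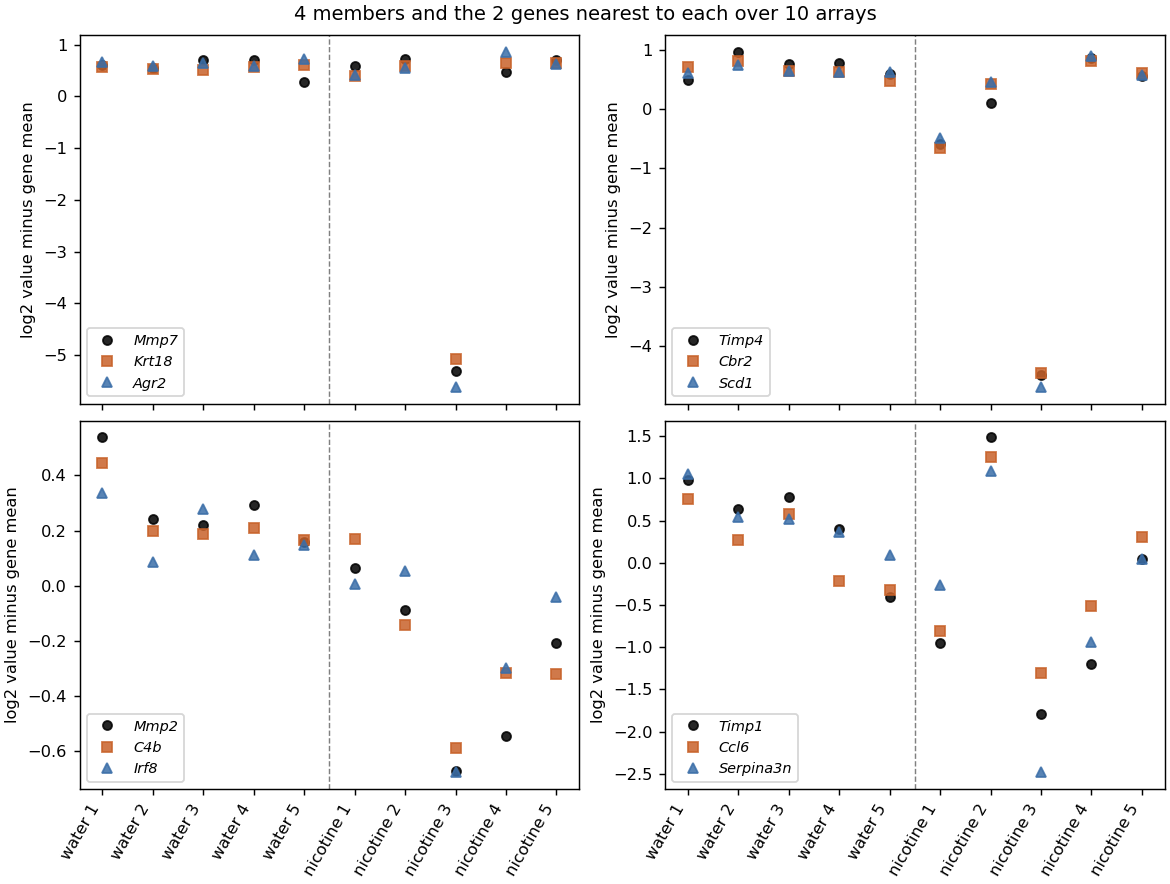
Gene-centred log2 values of Mmp7, Timp4, Mmp2 and Timp1 (black circles) in the 10 mice, each with its nearest gene (orange squares) and next nearest gene (blue triangles); the dashed line separates water from nicotine mice. Mmp7 and Krt18 are level in 9 mice and drop in nicotine 3, and Timp1, Ccl6 and Serpina3n peak together in nicotine 2.

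The members that stood lowest in nicotine 3, over 2 log2 units below the lowest water mouse, are shown with the 250 bases before their start sites. The sequences are RefSeq's for GRCm38.p6, read 5′ to 3′ along the gene. Windows before start sites were at hand for 8 of the 10 genes, but not for Mmp2 or Mmp9. Capitals mark 3 motifs searched on both strands: the AP-1 motif TGANTCA, the TATA box TATAAA and the GC box GGGCGG, none of which overlap each other here. Over all 32851 windows of this length, 6.75% held the AP-1 motif, 12.4% the TATA box and 32.7% the GC box.
Mmp7, chr9:7691840-7692089, plus strand: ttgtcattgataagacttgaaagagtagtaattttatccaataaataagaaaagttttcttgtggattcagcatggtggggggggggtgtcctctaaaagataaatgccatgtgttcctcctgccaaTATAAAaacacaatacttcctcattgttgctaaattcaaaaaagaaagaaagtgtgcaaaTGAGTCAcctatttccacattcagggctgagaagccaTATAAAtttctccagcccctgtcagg
Timp2, chr11:118355412-118355661, minus strand: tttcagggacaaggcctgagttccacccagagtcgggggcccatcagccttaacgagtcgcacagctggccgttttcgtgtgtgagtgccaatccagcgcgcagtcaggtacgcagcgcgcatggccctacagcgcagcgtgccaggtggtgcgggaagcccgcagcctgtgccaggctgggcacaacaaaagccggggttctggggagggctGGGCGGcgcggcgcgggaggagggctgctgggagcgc
Timp4, chr6:115252206-115252455, minus strand: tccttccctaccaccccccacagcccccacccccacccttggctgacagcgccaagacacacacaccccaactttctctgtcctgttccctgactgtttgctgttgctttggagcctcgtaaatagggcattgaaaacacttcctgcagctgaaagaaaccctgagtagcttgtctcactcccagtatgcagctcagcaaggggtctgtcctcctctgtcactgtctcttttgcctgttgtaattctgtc

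The window of Mmp7 held the AP-1 motif TGAGTCA, starting 63 bases before the start site, and TATA boxes starting 26 and 123 bases before it. A second window listed for Mmp7, not shown, held none of the 3 motifs. Timp2 held a GC box starting 37 bases before its start, and Timp4 held none of the 3 motifs in this window. None of the 3 motifs was shared by the 3 genes. Of the other members, Mmp3 held the AP-1 motif 46 bases before its start and a TATA box 7 bases before it. GC boxes started 19 and 13 bases before the start of Mmp14, 8 before Timp1 and 15 before Timp3. Mmp15, which had no probe set, held a GC box 106 bases before its start. These matches are descriptions of letters and not of bound sites.

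Mmp3 and Mmp7 lie in a row of 10 metalloproteinase genes on chromosome 9 in the RefSeq table, of which 4 were above the level filter. Mmp7 at the end of that row was far below the water mice in nicotine 3, at 6.59, but its 3 tested relatives were not. The water means of Mmp12, Mmp10 and Mmp20 were 6.72, 6.91 and 6.63, close to the level filter of 6.55. They had no room for such a fall, so no contrast with Mmp7 can be drawn. Mmp12, the macrophage elastase, had 8.49 in nicotine 1 and 8.40 in nicotine 3 against 6.55 to 6.83 in water mice. Its other 3 nicotine values ran from 6.65 to 6.72, and its difference of 0.67 ± 0.40 (SE) had an adjusted p of 0.458 by limma. That difference changed sign, to -0.035, without nicotine 1 and 3. Mmp10 and Mmp20 had differences of 0.13 and 0.06, and of 0.09 and 0.12 in the 8 mice. Mmp12 and Mmp20 were named for their place in this row after their values were seen.

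Of the inhibitors, 3 lie inside synapsin genes in the same table: Timp1 within Syn1, Timp3 within Syn3 and Timp4 within Syn2. Synapsins coat synaptic vesicles in neurons, and these genes were looked up after the values of the inhibitors were seen. Syn1 had log2 values of 9.39 in nicotine 1 and 10.35 in nicotine 3, against 6.97 to 7.29 in water mice. Syn2 had 10.86 and 10.59 in the same nicotine mice, against 7.21 to 7.85 in water mice. So in both mice the outer gene was high while the inner gene, Timp1 or Timp4, was below every water mouse. The inner gene was also below every water mouse where the outer gene lay inside the water range. Timp1 had 8.52 in nicotine 4 with Syn1 at 7.22, and Timp4 had 11.28 in nicotine 2 with Syn2 at 7.46. The neuroendocrine markers were high in nicotine 1 and 3, as given above. The synaptic vesicle gene Syp had 9.39 and 10.30 there, against 7.09 to 7.52 in water mice. The part of these markers in the synapsin values was not tested. Syn3 was high in nicotine 3 at 9.11, against 8.18 to 8.39, while nicotine 1, where Timp3 was also low, had 8.12. The group differences were 1.11 ± 0.61 (SE) for Syn1, 1.33 ± 0.70 for Syn2 and 0.20 ± 0.16 for Syn3, with limma adjusted p of 0.458, 0.458 and 0.514. Without nicotine 1 and 3 they were 0.04, 0.08 and 0.10.

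**Figure D5:**
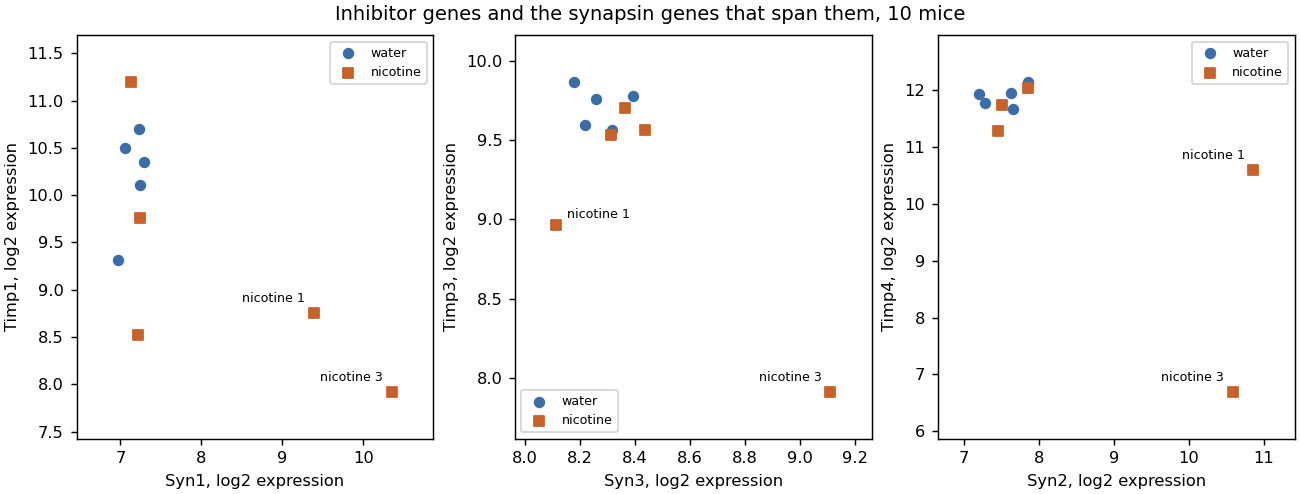
Log2 expression of Timp1, Timp3 and Timp4 (vertical axes) against Syn1, Syn3 and Syn2, the genes that span them (horizontal axes), with 1 point per mouse. Nicotine 1 and 3 lie to the right of the other 8 mice for Timp1 and Timp4, with Syn2 at 10.86 and 10.59.

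The remaining genes of the pathway were taken from 5 lists. Of 17 other metalloproteinases, 10 were above the filter, 7 with a positive and 3 with a negative difference, and 0 passed by limma over all genes (1 in each direction at an unadjusted p under 0.05, against 5.84% of all genes lower and 4.28% higher). Their median difference was 0.09, and it was -0.01 without nicotine 1 and 3, where 5 of the 10 were negative. Mmp23 had -0.36 ± 0.11 (SE), with 4 nicotine mice lower than each water mouse, and -0.32 without nicotine 1 and 3. Mmp10, a second stromelysin, had 0.13 ± 0.06 with 4 nicotine mice higher than each water mouse, and Mmp11, the stromal stromelysin, had 0.20 ± 0.10; in the 8 mice these were 0.09 and 0.05. Their adjusted p was 0.458 each by limma.

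Of 18 ADAM and ADAMTS metalloproteinases, which shed or cut cell surface and matrix proteins, 17 were tested, 8 positive and 9 negative with a median of -0.13. By limma 0 passed, and 3 were lower at an unadjusted p under 0.05, against 5.84% of all genes. Adam17, the main sheddase of TNF and a target of Timp3, differed by -0.27 ± 0.08 (SE), and its near relative Adam10 by -0.41 ± 0.18. Adam28 differed by -1.16 ± 0.51, with 6.99 in nicotine 1 and 6.35 in nicotine 3 against 9.09 to 9.27 in water mice. Adam17 and Adam28 were lower in all 5 nicotine mice than in any water mouse, or 2 of 17 genes, against 2.88% of all tested genes. With nicotine 1 and 3 left out the 3 differences were -0.18, -0.12 and -0.25.

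Among 11 activators of metalloproteinases, 9 were tested, 2 positive and 7 negative with a median of -0.11, and by limma 0 passed while 1 was lower at an unadjusted p under 0.05, against 5.84% of all genes. The proprotein convertase genes Pcsk5 and Pcsk6 differed by -0.34 ± 0.13 (SE) and 0.35 ± 0.23, and by -0.27 and -0.05 without nicotine 1 and 3. The epithelial protease gene St14 (matriptase) differed by -0.69 ± 0.73 with 7.33 in nicotine 3 and 11.07 to 11.44 in water mice, and by 0.11 without nicotine 3. The median over these 9 genes was 0.05 without nicotine 1 and 3.

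Of 12 other protease inhibitors and clearance receptors, 9 were tested, 3 positive and 6 negative with a median of -0.07. By limma 0 passed, and 0 had an unadjusted p under 0.05. Spock1, a proteoglycan of the testican family, differed by 0.87 ± 0.47 (SE) and by 0.04 without nicotine 1 and 3. The cysteine protease inhibitor gene Cst3 differed by -0.32 ± 0.19, and A2m, the broad protease trap of plasma, by 0.17 ± 0.12; in the 8 mice these were -0.05 and 0.07.

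The matrix proteins that these enzymes cut were counted the same way. Of 17 substrates 16 were tested, 4 positive and 12 negative with a median of -0.24, where 49.3% of all genes were negative. By limma 0 passed, while 5 were lower at an unadjusted p under 0.05, against 5.84% of all genes. Lama2, a laminin chain, differed by -0.48 ± 0.12 (SE) and did not overlap between the groups, as 2.88% of all genes did in that direction. The basement membrane linker gene Nid1 differed by -0.53 ± 0.16 and Col6a1, a chain of type VI collagen, by -0.29 ± 0.10. In the fit of 8 mice the median was -0.19 and 15 of 16 were negative, where 46.5% of all genes were, with Lama2 at -0.46, Nid1 at -0.61 and Col6a1 at -0.32. Of these substrates 3, Col1a1, Col1a2 and Col3a1, are also in the fibroblast list, whose mean was lower in nicotine mice as given beside Mmp2.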

How the data were processed

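Total RNA from 10 prostates was prepared with Trizol and, after amplification and labelling, measured on Affymetrix whole-transcript arrays, per the labels' protocols. The authors deposited 1 table of log2 values for 35556 probe sets; how these were summarised and normalized is not stated in the labels. Values ran from 3.59 to 14.1 and array medians from 7.50 to 7.57, from which the log2 scale was read. The labels used here name no batch.

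Probe sets with 1 gene symbol in the platform annotation (21789, against 1621 with several and 12146 unnamed) gave 19938 genes, each by its probe set with the highest mean. Of the probe sets with 1 symbol, 21698 had an Entrez identifier found in RefSeq, and symbols were kept as annotated. Genes in the lowest 25% by mean level, below 6.55, were left out, and 14953 were tested. Nicotine was compared with water by limma 3.58.1 in R 4.3.3 (lmFit, eBayes, two-sided, Benjamini-Hochberg over all tested genes, threshold 0.05). SEs and 95% intervals are of that moderated fit. Exact two-sided permutation tests enumerated all splits of 5 against 5 mice, or 56 for 5 against 3 mice. The limma fit was tested on simulated data with the same spread in both groups. The wider spread of the nicotine mice was not simulated.

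The members and lists were chosen with earlier results of these data known, as was leaving out nicotine 1 and 3 and the seminal vesicle covariate. All members were named, with the 3 genes of smallest unadjusted p in each pathway list and the 2 genes nearest to each member, predicted and clone names left out. Alternatives were other level filters, averaging a gene's probe sets, array medians set equal, a further quantile step, eBayes with a trend or robust, array weights, a block for mouse number, a seminal vesicle covariate and leaving out mice.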

Additional observations from a re-analysis of the deposited data

Results flagged for a closer look

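A mouse stood far from the other 4 of its group, by its gap as a share of the group's range, in 12 of 80 groups of values; chance alone gives about 1 in 20. Nicotine 3 did so on the low side in Mmp7 (0.960), Timp2 (0.904) and Timp4 (0.729), and in Pcsk5 (0.803) and St14 (0.972), and on the high side in A2m (0.803). It also did so in the means of the smooth muscle (0.727) and luminal prostate markers (0.805). Nicotine 1 stood apart in the skeletal muscle markers (0.876) and nicotine 4 in the adipocyte markers (0.717), both on the high side. Water 1 stood apart on the high side in Nid1 (0.774) and in the endothelial markers (0.782).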

How the results depend on the processing

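The count of genes past the threshold was 0 with all planned settings but array weights, where it was 1096, with Mmp2 at -0.50, Lama2 at -0.37 and Nid1 at -0.49 past the threshold. For the 8 tested members, 152 of 159 alternative values kept their direction and side of the threshold, 1 passed and 6 changed sign. The 152 include settings that could not change a member's difference. These were the other level filters, averaging probe sets, eBayes with a trend or robust, and the block for mouse number. Sizes moved more: array weights gave -0.28 for Timp4, -0.08 for Timp3, -0.05 for Timp2, -0.41 for Timp1 and -0.03 for Mmp14, and the seminal vesicle covariate gave -0.01 for Mmp9, -0.62 for Mmp7, -0.93 for Timp4, -0.37 for Timp3 and -0.29 for Timp2. With array weights the differences that changed sign were 0.16 for Mmp9, 0.0197 for Mmp7, 0.15 for St14 and -0.0583 for Mmp12. Without nicotine 1 and 3 they were 0.12 for Mmp9, 0.0631 for Mmp7, 0.11 for St14, -0.0482 for Pcsk6 and -0.035 for Mmp12. Leaving out each mouse in turn gave 0 genes past the threshold and ranges from -1.46 to 0.0534 for Mmp7, from -0.23 to 0.0069 for Mmp9, from -0.90 to 0.11 for St14 and from -0.67 to -0.49 for Mmp2; the sign changes came without nicotine 3. The cause of these changes was not tested. The mouse number as a block gave 0 genes past the threshold and -0.58 for Mmp2 (limma adjusted p 0.506). The labels do not say that the numbers pair the mice, so they were not taken as pairs. Mice with the same number had deviations from their group means correlated from -0.13 to 0.16. Nicotine 1 and 3 weigh heavily in these deviations, so the correlations could hardly show pairing. The 5 arrays a group limit what can be resolved: the interval of Timp1 ran from -2.23 to 0.30.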
